A study of Mus musculus with 6 samples.

Results

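Cell adhesion molecules are the surface proteins by which a cell holds on to its neighbors and to passing leukocytes. The 10 genes described here, Vcam1, Icam1, Cdh2, Cdh11, Alcam, Mcam, Ncam1, L1cam, Cadm1 and Igsf11, were chosen by name and were all found among the 34745 genes of the deposited table. They were chosen with earlier results of these data known. The RNA came from primary renal fibroblasts of wild-type (WT) mice. In 3 libraries the fibroblasts had grown alone, and in 3 they had spent 24 h under a porous insert holding Th17 cells, the helper T cells that make interleukin-17. The Th17 cells had been induced from splenic CD4+ T cells with interleukin-1β, interleukin-6 and interleukin-23 and an antibody to interferon-γ. The 0.4-μm pores let the cell types share medium while the insert kept them apart, and the fibroblasts below it were collected. The age of the mice and whether the lone cultures carried an empty insert were not stated. No source states whether replicates were taken from separate cultures or animals, so p-values measure only the spread between these libraries, which may be technical.

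Of the 10 genes, 8 belong to the immunoglobulin superfamily, whose members carry immunoglobulin folds outside the cell. VCAM-1 and ICAM-1 are bound by integrins on leukocytes and are classically induced on stromal and endothelial cells by inflammatory cytokines. Cdh2 and Cdh11 encode cadherins, calcium-dependent receptors that bind the same cadherin on the next cell and are coupled to actin by catenins. NCAM, L1 and CADM1 bind like molecules on neighboring cells and are best known from nerve cells, while ALCAM and MCAM are found on many mesenchymal and vascular cells.

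The libraries held between 12050529 and 13209581 fragment counts, and 13088 genes had enough counts to be tested. Levels within a gene are given as CPM, counts relative to the library total, scaled by trimmed mean of M values (TMM), a correction for library composition, and 3 counts correspond to between 0.223 and 0.254 CPM. Adjusted p-values come from the quasi-likelihood test of edgeR, with the Benjamini-Hochberg method applied over all genes tested, and ± denotes the SD of 3 libraries. All 12 fibroblast markers examined were detected, with a summed level of 36100 to 37960 CPM alone and 15980 to 17930 CPM with Th17 cells. Collagen genes made up most of that difference, with Col1a1 at a mean of 15090 CPM alone and 6235 CPM with Th17 cells, whereas the means of Dcn were 505 and 1429 CPM and those of Postn 1948 and 1899 CPM.

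The adhesion molecules split. With Th17 cells, Icam1, Vcam1, Mcam and Ncam1 were lower, Igsf11, Alcam and Cdh11 were higher, and Cdh2 and L1cam did not pass the test. Cadm1 had too few counts to be tested. Thus 7 of the 9 tested genes had an adjusted p below 0.05, compared with 37.1% of all genes tested. Of these, 5 also changed more than 2-fold, compared with 11.6% of all genes tested, 4 of them lower (7.78% of all genes) and 1 higher (3.87%). Taking direction into account, 4 were lower (20% of all genes tested) and 3 were higher (17.1%). Lone and cocultured CPM did not overlap for 8 of the 9 tested genes, where the share among all genes was 50.4%. The median log2 fold change of the 9 genes was −0.06, and that of all genes was 0.00. Igsf11 and L1cam reached the count limit only through the cocultured libraries.

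**Figure D1:**
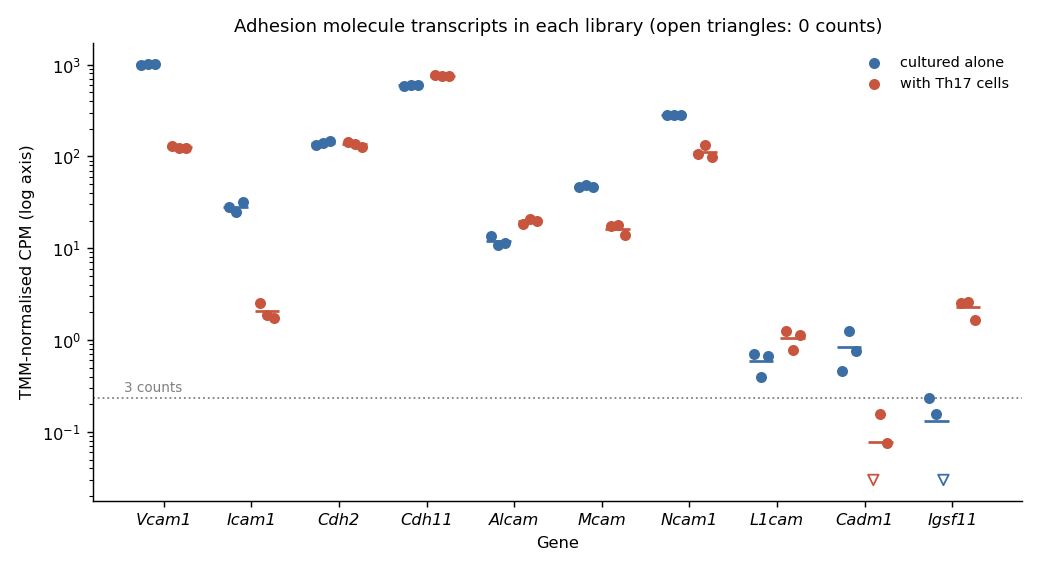
TMM-normalised CPM (log axis) of the 10 adhesion genes in each library, with blue points for fibroblasts cultured alone, red points for fibroblasts with Th17 cells, short bars for group means and open triangles for libraries at 0 counts. Vcam1 stood near 1008 CPM alone and near 125 CPM with Th17 cells, and the groups overlap only for Cdh2. Igsf11 alone and Cadm1 with Th17 cells lie at or below the dotted line at 3 counts, and L1cam lies above it in every library.

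Vcam1 carried the largest loss of transcripts. Vcam1 (ENSMUSG00000027962, chromosome 3, 116109949 to 116129688, minus strand, protein-coding, GRCm38) encodes the ligand of the integrin α4β1. Its counts were 12782, 12991 and 11879 alone and 1753, 1556 and 1618 with Th17 cells. Every cocultured library lay far below every lone library, and the libraries of a group were close to each other. The level decreased from 1008 ± 17.4 to 125 ± 4.46 CPM (n = 3 each; log2 fold change by edgeR −3.01 with SE 0.0577, adjusted p = 8.56e-09), an 8.05-fold reduction. In these bulk libraries, fewer cells of a type and less RNA per cell cannot be told apart. An antisense gene that overlaps Vcam1 was listed at 0 counts in all libraries.

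Icam1 showed the largest fold reduction among the adhesion molecules. Icam1 (ENSMUSG00000037405, chromosome 9, 21015960 to 21028797, plus strand, protein-coding, GRCm38) encodes the ligand of the β2 integrins LFA-1 and Mac-1. Its counts were 363, 313 and 377 alone and 34, 24 and 23 with Th17 cells, with no overlap. The level decreased from 28.3 ± 3.58 to 2.06 ± 0.416 CPM (n = 3 each; log2 fold change by edgeR −3.77 with SE 0.173, adjusted p = 3.78e-07), a 13.7-fold reduction. On log2(FPKM + 1), where the pseudocount shrinks low values, limma gave −2.70. Its genomic neighbors Icam4 and Icam5, which encode further members of the ICAM family, were sparse. Icam4 had at most 5 counts in a library, and Icam5 had a log2 fold change of −0.66 (by edgeR, with SE 0.565 and adjusted p = 0.4).

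Because Icam1 is a classical target of NF-κB and of interferon signaling, the 250 bases upstream of its start site are shown beside those of Igsf11, the gene with the largest increase. The sequences are from RefSeq on GRCm38.p6, where 5 of 9 genes looked up had an entry (Icam1, Alcam, Mcam, L1cam and Igsf11). Capitals mark matches, on either strand, to GGNNNTTCC (a simplified κB motif) and TTCNNNGAA (the gamma-activated sequence of interferon-γ signaling). A simplified interferon-stimulated response element and the AP-1 motif TGANTCA were searched as well. None of the marked matches overlap each other.
Icam1, chr9:21015690-21015939, plus strand: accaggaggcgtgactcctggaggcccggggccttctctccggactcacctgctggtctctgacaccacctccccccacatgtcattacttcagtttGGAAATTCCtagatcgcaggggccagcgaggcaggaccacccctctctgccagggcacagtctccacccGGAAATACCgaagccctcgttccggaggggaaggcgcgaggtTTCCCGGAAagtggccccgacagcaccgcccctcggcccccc
Igsf11, chr16:38902095-38902344, plus strand: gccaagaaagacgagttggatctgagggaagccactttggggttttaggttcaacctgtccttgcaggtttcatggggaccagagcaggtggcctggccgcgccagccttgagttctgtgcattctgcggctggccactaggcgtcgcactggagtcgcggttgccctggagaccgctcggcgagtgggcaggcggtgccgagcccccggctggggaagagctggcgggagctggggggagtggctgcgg
The Icam1 window held the κB motif at −153 to −145 and at −84 to −76, and the gamma-activated sequence at −42 to −34, counted from the start site. Among 32851 upstream windows of the same length, 15.7% held the κB motif and 7.02% held the gamma-activated sequence, while 2.98% held the interferon-stimulated response element and 6.75% the AP-1 motif. None of the 4 motifs was found in the windows of Igsf11, Alcam, Mcam or L1cam. A match is a description of the letters and does not show binding.

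Feedback genes of NF-κB and transcription genes induced by interferon were listed for comparison. Of 13 genes tested, 4 were higher and 3 lower, so 53.8% passed, compared with 37.1% of all genes tested, and the median log2 fold change was 0.07. Irf1, which encodes a transcription factor induced by interferon-γ, decreased from 42.8 ± 1.34 to 14.7 ± 2.65 CPM (n = 3 each; log2 fold change by edgeR −1.54 with SE 0.126, adjusted p = 1.6e-05). Socs3, a feedback inhibitor of cytokine receptors, rose from 35.1 ± 1.295 to 203 ± 31.96 CPM (n = 3 each; log2 fold change by edgeR 2.53 with SE 0.113, adjusted p = 3.18e-07). Of the NF-κB genes, Nfkb1 rose from 182 ± 2.89 to 362 ± 16.7 CPM (n = 3 each, edgeR adjusted p = 1.85e-06). Nfkb2 was higher by a small margin (0.27 by edgeR, adjusted p = 0.0107) and Nfkbia lower (−0.29 by edgeR, adjusted p = 0.0254). Nfkbie, Nfkbiz, Tnfaip3, Rel, Relb and Birc3 did not pass, with log2 fold changes between −0.13 and 0.18. These NF-κB genes were named after their values had been seen. The part of the listed genes in the levels of Vcam1 and Icam1 was not tested.

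Per length, Vcam1 exceeded Icam1 in every library, more so with Th17 cells. Per length, as FPKM (fragments normalised to transcript length and library total), the ratio of Vcam1 to Icam1 was 9.27, 10.9 and 8.29 alone and 13.6, 17.1 and 18.5 with Th17 cells. The cocultured libraries all lay above the lone libraries. The mean ratio was 9.49 ± 1.33 alone and 16.4 ± 2.54 with Th17 cells, a difference of 0.78 on the log2 scale (exact two-sided permutation test, p = 0.1, the smallest that 3 against 3 can give). With transcript lengths the mean ratio was 26.4 alone and 45.5 with Th17 cells, with the same difference on the log2 scale.

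The integrins that bind these ligands were measured in the same libraries. Itgal and Itgb2 encode the chains of LFA-1, a leukocyte integrin. Itgal had 10, 6 and 0 counts alone and 0 in each cocultured library. Itgb2 decreased from 3.14 ± 0.757 to 1.02 ± 0.349 CPM (n = 3 each; log2 fold change by edgeR −1.62 with SE 0.323, adjusted p = 0.00393). Itga4, the α chain of the VCAM-1 receptor, had 35, 36 and 23 counts alone and 90, 76 and 65 with Th17 cells, so every cocultured library was above every lone one (log2 fold change by edgeR 1.22 with SE 0.216, adjusted p = 0.00196). Its partner Itgb1 did not pass the test (−0.10 by edgeR with SE 0.0539, adjusted p = 0.2).

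Marker lists of other cells had lower summed levels with Th17 cells. All 13 macrophage markers were detected, and their summed level was 61.3 to 65.6 CPM alone and 20.2 to 21.3 CPM with Th17 cells. Most of that difference was Lyz2, at a mean of 27.7 CPM alone and 3.33 CPM with Th17 cells. Adgre1, the F4/80 antigen, had a mean of 4.63 CPM alone and 0 counts in each cocultured library, whereas the mean of Cd14 was 11.2 CPM in both groups. The summed level of 11 endothelial markers, of which Tie1, Emcn and Erg were at 0 in all libraries, was 10.4 to 12.4 CPM alone and 5.58 to 6.37 CPM with Th17 cells. That difference lay in Kdr, at a mean of 5.55 CPM alone and 0.127 CPM with Th17 cells, while the means of Pecam1 were 1.24 and 1.32 CPM and those of Egfl7 2.59 and 2.93 CPM. Of 15 T cell markers, 9 were detected, and those at 0 in all libraries included Cd3d, Cd2, Cd5, Il17a and Il17f. The summed T cell level was 7.38 to 9.65 CPM alone and 4.80 to 5.58 CPM with Th17 cells. Most of that difference was Lck, with means of 4.73 and 2.29 CPM, and Ptprc, with means of 0.989 and 0 CPM, whereas the means of Trac were 2.64 and 2.69 CPM. The part of other cell types in the Vcam1, Icam1 and Itgb2 levels was not tested.

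**Figure D2:**
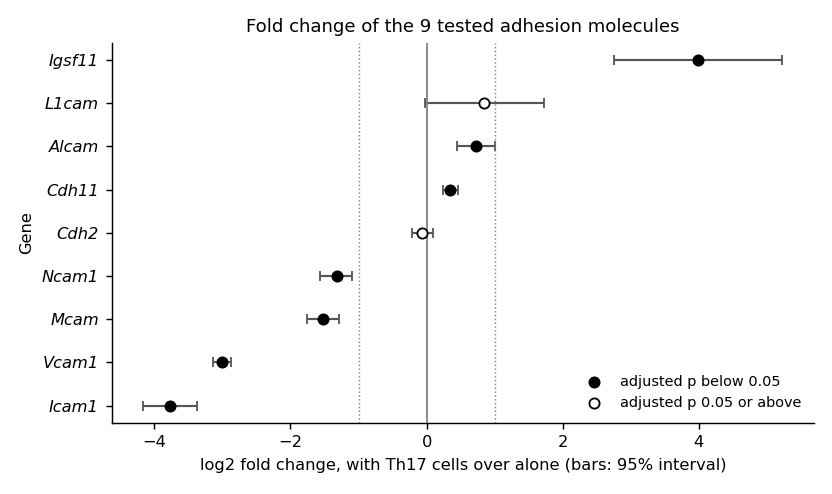
Log2 fold change of the 9 tested adhesion genes, with Th17 cells over alone, with 95% intervals from the edgeR fit (filled points have an adjusted p below 0.05, dotted lines mark a 2-fold change). Icam1, at −3.77, and Igsf11, at 3.99, are at the ends, and the intervals of Cdh2 and L1cam include 0.

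Of the cadherins, Cdh11 rose slightly and Cdh2 did not pass the test. Cdh11 (ENSMUSG00000031673, chromosome 8, 102632995 to 102785111, minus strand, protein-coding, GRCm38) encodes cadherin-11, the typical cadherin of fibroblasts and other mesenchymal cells. It had 7532, 7524 and 7035 counts alone and 10246, 9616 and 9767 counts with Th17 cells, with no overlap. The level rose from 592 ± 5.8 to 754 ± 9.55 CPM (n = 3 each; log2 fold change by edgeR 0.35 with SE 0.0491, adjusted p = 0.000517), a 1.27-fold increase that was small but larger than the spread between replicates. Cdh2 (ENSMUSG00000024304, chromosome 18, 16588877 to 16809246, minus strand, protein-coding, GRCm38) encodes N-cadherin. Its counts were 1734, 1764 and 1754 alone and 1911, 1741 and 1650 with Th17 cells, so the groups overlapped. No difference was detected between 141 ± 6.97 and 135 ± 8.46 CPM (n = 3 each; log2 fold change −0.06, 95% interval −0.22 to 0.10, edgeR adjusted p = 0.528). The interval excludes a change of Cdh2 as large as that of Cdh11.

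Accordingly, the balance between these cadherins moved toward Cdh11. The ratio of Cdh2 to Cdh11 in FPKM was 0.101, 0.103 and 0.109 alone and 0.0816, 0.0792 and 0.0739 with Th17 cells. The groups did not overlap, and the log2 ratio fell by 0.41 (exact two-sided permutation test, p = 0.1, the smallest that 3 against 3 can give). With transcript lengths the mean ratio was 0.278 alone and 0.209 with Th17 cells, compared with 0.104 and 0.0782 in FPKM.

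Other cadherins moved more. Of 29 listed genes, 16 were tested, and 5 were higher and 10 lower, so 93.8% passed the test, compared with 37.1% of all genes tested. Their median log2 fold change was −0.50. Cdh3, which encodes P-cadherin, had 292, 284 and 255 counts alone and 10, 18 and 6 with Th17 cells (log2 fold change by edgeR −4.67 with SE 0.253, adjusted p = 1.07e-06). Pcdh17, Dchs1 and Pcdh10 were also lower, with log2 fold changes of −2.07, −1.81 and −1.74. Cdh6, which encodes K-cadherin, known from the developing kidney, rose from 4.73 ± 0.779 to 20.8 ± 0.625 CPM (n = 3 each; log2 fold change by edgeR 2.13 with SE 0.139, adjusted p = 3.59e-06). Dsc2, a desmosomal cadherin, and Celsr3 rose by 1.43 and 1.13 on the log2 scale. Cdh1, which encodes the E-cadherin of epithelia, had at most 4 counts in a library. Of 11 epithelial markers, 9 were detected, with Umod and Slc34a1 at 0, and their summed level was 19.3 to 21.6 CPM alone and 3.81 to 4.72 CPM with Th17 cells. Most of that difference was Krt19, at a mean of 15.4 CPM alone and 2.48 CPM with Th17 cells, while the means of Krt18 were 1.18 and 0.893 CPM. The part of epithelial cells in the cadherin levels was not tested.

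The cytoplasmic linkers that tie adhesion molecules to the cytoskeleton were called about as often as other genes. Of 21 genes tested, 4 were higher, 5 lower and 12 did not pass, so 42.9% passed, near the 37.1% of all genes tested. None passed with a change above 2-fold, compared with 11.6% of all genes tested. Their log2 fold changes lay between −0.74 and 0.87, with a median of 0.04. For the catenins, Ctnnb1, which encodes β-catenin, had a log2 fold change of 0.22 (by edgeR, with SE 0.171 and adjusted p = 0.349), and Ctnna1, which encodes α-catenin, 0.05 (SE 0.0536, edgeR adjusted p = 0.492). Ctnnd1, which encodes the p120 catenin, was lower by a small margin (−0.37 by edgeR with SE 0.072, adjusted p = 0.00323). These catenins were named after their values had been seen.

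Alcam and Mcam, a related pair, went opposite ways. Mcam (ENSMUSG00000032135, chromosome 9, 44134469 to 44142727, plus strand, protein-coding, GRCm38) encodes CD146, which pericytes, smooth muscle and endothelium carry. It had 593, 616 and 545 counts alone and 233, 227 and 183 counts with Th17 cells, with no overlap. The level decreased from 47.0 ± 1.51 to 16.4 ± 2.13 CPM (n = 3 each; log2 fold change by edgeR −1.52 with SE 0.108, adjusted p = 6.23e-06), a 2.87-fold reduction. Lama4, a laminin chain of the matrix that MCAM binds, decreased from 206 ± 3.25 to 118 ± 7.02 CPM (n = 3 each; log2 fold change by edgeR −0.80 with SE 0.0642, adjusted p = 1.36e-05). It was named after its values had been seen.

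The summed level of mural cell markers was also lower with Th17 cells, but the single markers differed. All 9 were detected, with a summed level of 2612 to 2737 CPM alone and 1200 to 1437 CPM with Th17 cells. Most of that difference was Des, which encodes desmin, at a mean of 1315 CPM alone and 312.5 CPM with Th17 cells. Cspg4, which encodes the pericyte marker NG2, had a mean of 139 CPM alone and 157 CPM with Th17 cells. The part of mural cells in the level of Mcam was not tested.

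Alcam (ENSMUSG00000022636, chromosome 16, 52248996 to 52454074, minus strand, protein-coding, GRCm38) encodes the ligand of CD6 on T cells. It was the only one of the 10 genes that overlaps no other annotated gene. It had 176, 138 and 134 counts alone and 245, 266 and 263 counts with Th17 cells, so that the highest lone library was below the lowest cocultured one. The level rose from 12.0 ± 1.49 to 19.7 ± 1.37 CPM (n = 3 each; log2 fold change by edgeR 0.72 with SE 0.124, adjusted p = 0.00172), a 1.65-fold increase. Cd6 itself had 28, 25 and 14 counts alone and 0, 8 and 2 with Th17 cells (log2 fold change by edgeR −2.76 with SE 0.673, adjusted p = 0.0108). It reached the count limit for testing only through the lone libraries.

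Among the adhesion molecules best known from nerve cells, Ncam1 fell and L1cam did not pass the test. Ncam1 (ENSMUSG00000039542, chromosome 9, 49502136 to 49798925, minus strand, protein-coding, GRCm38) had 3669, 3575 and 3322 counts alone and 1429, 1704 and 1297 counts with Th17 cells. The groups were well apart, and the coefficient of variation was 0.692% alone and 16.4% with Th17 cells, where replicate 2 was the highest. The level decreased from 283 ± 1.96 to 113 ± 18.5 CPM (n = 3 each; log2 fold change by edgeR −1.32 with SE 0.105, adjusted p = 1.29e-05), a 2.5-fold reduction. The enzymes that add polysialic acid to NCAM were hardly expressed, St8sia2 with at most 16 counts and St8sia4 with at most 3 counts in a library.

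Partners of NCAM were examined next. Ptprz1, a receptor phosphatase that binds NCAM and L1, had 413, 376 and 346 counts alone and 31, 35 and 14 with Th17 cells (log2 fold change by edgeR −3.89 with SE 0.233, adjusted p = 2.02e-06). Gfra1, a co-receptor for GDNF, decreased from 3.10 ± 0.678 to 1.02 ± 0.372 CPM (n = 3 each; log2 fold change by edgeR −1.60 with SE 0.326, adjusted p = 0.00437). Not every partner was lower. Fgfr1, with means of 440 and 466 CPM, did not pass the test (0.09 by edgeR with SE 0.0562, adjusted p = 0.271). Neither did Gdnf, with means of 45.7 and 47.3 CPM (0.05 by edgeR with SE 0.0819, adjusted p = 0.675). Fgfr1 and Gdnf were named after their values had been seen. All 10 Schwann cell and neuronal markers were detected, at a summed level of 20.6 to 24.0 CPM alone and 4.61 to 6.53 CPM with Th17 cells. Most of that difference was Mbp, with means of 9.24 CPM alone and 0.307 CPM with Th17 cells, and Tubb3, with means of 9.52 and 3.47 CPM. The glial gene Sox10 had only 9, 6 and 2 counts alone and 0 in each cocultured library. The means of Elavl4 were 0.158 and 0.153 CPM, and those of Snap25 were 0.137 and 0.330 CPM. The part of glial cells in the level of Ncam1 was not tested.

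L1cam (ENSMUSG00000031391, chromosome X, 73853778 to 73896105, minus strand, protein-coding, GRCm38) was close to the limit of detection. It had 9, 5 and 8 counts alone and 17, 10 and 15 counts with Th17 cells. The cocultured values were higher, and the groups did not overlap, but the log2 fold change of 0.85 did not pass the test (95% interval −0.03 to 1.72, edgeR adjusted p = 0.119). The interval reaches from no change to more than a 2-fold increase, so a difference was not detectable at this depth. L1cam also overlaps Arhgap4 on its strand, which had 13, 8 and 6 counts alone and 20, 28 and 16 with Th17 cells. Because the sources do not state how shared fragments were assigned, the counts of L1cam are uncertain.

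Igsf11 and Cadm1 sat at the detection limit in opposite groups. Igsf11 (ENSMUSG00000022790, chromosome 16, 38901471 to 39027159, plus strand, protein-coding, GRCm38) encodes a homophilic adhesion molecule that also binds the T cell regulator VISTA. It had 3, 2 and 0 counts alone and 34, 33 and 22 counts with Th17 cells. The lone libraries were thus at or below 3 counts, and the cocultured libraries were all well above it. The level rose from 0.130 ± 0.119 to 2.27 ± 0.513 CPM (n = 3 each; log2 fold change by edgeR 3.99 with SE 0.547, adjusted p = 0.000448). From the summed counts, 5 alone and 89 with Th17 cells, the ratio was 16.9 (95% exact interval 6.98 to 53.4, counting error only). On the log2 scale the value was 4.63 without lone replicate 1 and 3.47 without lone replicate 3, and on log2(FPKM + 1) limma gave 0.59. Vsir, which encodes VISTA, was lower by a small margin (−0.56 by edgeR with SE 0.141, adjusted p = 0.0123).

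Cadm1 (ENSMUSG00000032076, chromosome 9, 47530173 to 47857637, plus strand, protein-coding, GRCm38) encodes SynCAM1, which binds other CADM proteins, nectin-3 and the lymphocyte receptor CRTAM. It had 6, 16 and 9 counts alone and 0, 2 and 1 counts with Th17 cells. No cocultured library reached a lone library, but the counts were below the limit for testing. From the summed counts, 31 alone and 3 with Th17 cells, the ratio of alone to cocultured was 10.9 (95% exact interval 3.39 to 55.6, counting error only). When no filter on low counts was applied, the log2 fold change was −3.28 (by edgeR, with SE 0.837 and adjusted p = 0.00965). Crtam had 0 counts alone and 0, 0 and 3 counts with Th17 cells.

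The other CADM genes and further immunoglobulin-superfamily adhesion genes were also mixed. Of 37 genes, 23 were tested, and 4 were higher, 10 lower and 9 did not pass. Thus 60.9% passed, compared with 37.1% of all genes tested, and the median log2 fold change was −0.20. Cadm4 decreased from 22.1 ± 1.59 to 5.00 ± 0.728 CPM (n = 3 each; log2 fold change by edgeR −2.14 with SE 0.14, adjusted p = 3.6e-06), and Cadm3 had a log2 fold change of −1.56. Nfasc, which encodes neurofascin of the L1 family, fell from 17, 25 and 25 counts to 5, 3 and 0 counts (log2 fold change by edgeR −3.08 with SE 0.587, adjusted p = 0.00297). Cd200, which encodes an inhibitory ligand for myeloid cells, had a log2 fold change of −1.13. Nrcam, another gene of the L1 family, rose from 5.39 ± 0.999 to 24.9 ± 1.08 CPM (n = 3 each; log2 fold change by edgeR 2.20 with SE 0.142, adjusted p = 3.32e-06). Negr1, which encodes a membrane-anchored protein of the IgLON group, rose from 4, 5 and 3 counts to 32, 23 and 26 counts (log2 fold change by edgeR 2.64 with SE 0.348, adjusted p = 0.000349). Negr1 reached the count limit for testing only through the cocultured libraries, and Nfasc only through the lone libraries. The latter also holds for Cdh3, Pcdh10, Itgb2 and Gfra1, named in other paragraphs. Within the L1 family, then, Nrcam was higher and Nfasc was lower.

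**Figure D3:**
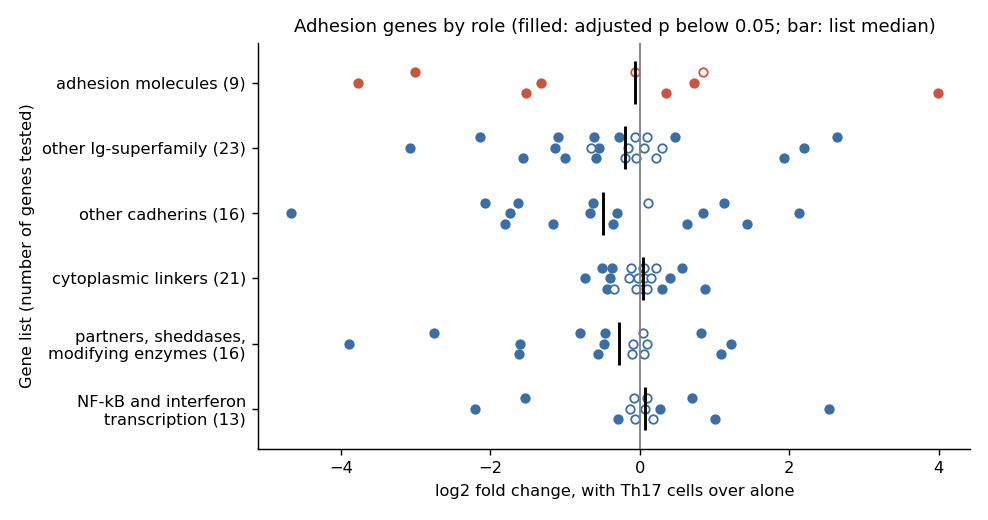
Log2 fold change, with Th17 cells over alone, of every tested gene in the adhesion molecules (red) and in 5 lists of genes grouped by role (blue), with filled points for an adjusted p below 0.05 and a black bar for the list median. Cytoplasmic linkers stay between −0.74 and 0.87, whereas other cadherins reach from −4.67 to 2.13.

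In the list of binding partners, sheddases and modifying enzymes, 16 of 22 genes were tested, and 3 were higher and 8 lower (median log2 fold change −0.28), so 68.8% passed, compared with 37.1% of all genes tested. Itgav, an integrin chain that binds L1, had 2758, 2487 and 2397 counts alone and 7762, 6683 and 2727 with Th17 cells (log2 fold change by edgeR 1.09 with SE 0.304, adjusted p = 0.0198), so cocultured replicate 3 stood close to the lone libraries. The number of higher genes in this list was 1 without lone replicate 1, without lone replicate 2 or without lone replicate 3. The sheddases Adam10 and Adam17 release adhesion molecules from the surface, and both were expressed. Adam17 was lower by a small margin (−0.48 by edgeR with SE 0.0669, adjusted p = 0.00051), and Adam10 did not pass the test (−0.09 by edgeR with SE 0.0594, adjusted p = 0.257). These sheddases were named after their values had been seen.

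The changes altered the order of the adhesion transcripts. In deposited FPKM, which allow genes to be compared per length, the order alone was Cdh11 (137 ± 1.71), Vcam1 (102 ± 1.84), Ncam1 (21.9 ± 0.0874), Cdh2 (14.3 ± 0.753), Icam1 (10.9 ± 1.40), Mcam (8.63 ± 0.274) and Alcam (1.33 ± 0.162). Cadm1, L1cam and Igsf11 were below 0.1 FPKM in each lone library, and these 3 did not differ beyond their spread. With Th17 cells the FPKM order was Cdh11 (183 ± 1.86), Cdh2 (14.3 ± 0.845), Vcam1 (13.3 ± 0.491), Ncam1 (9.13 ± 1.44), Mcam (3.14 ± 0.391), Alcam (2.30 ± 0.154), Icam1 (0.827 ± 0.167), Igsf11 (0.548 ± 0.122), L1cam (0.0894 ± 0.0212) and Cadm1 (0.00507 ± 0.0051). Cdh2 and Vcam1 overlapped in that order, and in FPKM Icam1 fell from the fifth place to the seventh. With the lengths of the longest coding transcripts, Icam1 ranked 6 alone and 7 with Th17 cells.

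The summed FPKM of the 10 genes was 296 ± 3.97 alone and 226 ± 3.78 with Th17 cells, and with the lengths of the longest annotated coding transcripts in place of those behind the FPKM it was 486 ± 6.85 and 229.9 ± 5.55 per kilobase. Cdh11 made up 46.3% ± 0.066 of the summed FPKM alone and 80.7% ± 0.803 with Th17 cells, while the FPKM share of Vcam1 went from 34.4% ± 0.438 to 5.86% ± 0.184 (SD, n = 3 each). In both cases the groups were far apart compared with the spread between libraries.

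These levels depend on the length assigned to each gene. The deposited FPKM of Vcam1 imply a length of 9653 bases, whereas its longest annotated coding transcript has 3469 bases in 9 exons. For Cdh11 the implied length was 4216 bases and the longest coding transcript 5647 bases, and for Icam1 the lengths were 2540 and 2535 bases. With the lengths of the longest coding transcripts, Vcam1 ranked first alone, with 58.5% ± 0.483 of the summed level compared with 21.1% ± 0.076 for Cdh11. With Th17 cells Cdh11 ranked first, at 59.3% ± 1.07, and Vcam1 second, at 16.1% ± 0.561. Cdh11 was therefore the most abundant adhesion transcript with Th17 cells under both lengths, while the first place alone depended on the length. The fold change of a gene does not depend on its length.

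**Figure D4:**
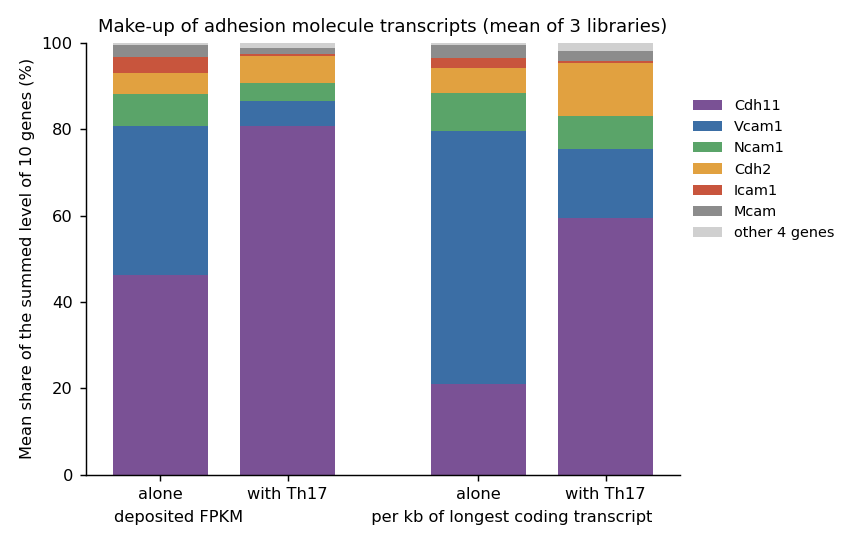
Mean share (%) of each gene in the summed level of the 10 adhesion genes, for 3 libraries alone and 3 with Th17 cells, by deposited FPKM (left) and per kilobase of the longest annotated coding transcript (right). The Vcam1 share goes from 34.4% to 5.86% on the left and from 58.5% to 16.1% on the right, and Cdh11 takes most of the rest.

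Of the 10 genes, 4 lie on chromosome 9 (Icam1, Mcam, Cadm1 and Ncam1), and each of these had lower counts in every cocultured library than in any lone library. For comparison, CPM of the groups did not overlap, in either direction, for 50.4% of all genes tested. Icam1, Mcam and Ncam1 passed the test as lower, as did 20% of all genes tested, and Cadm1 was not tested. Within 250 kb of Mcam, 14 other genes were tested, of which 6 were called higher and 2 lower. Near Icam1, 18 were tested, with 2 called higher and 3 lower. Ncam1 had 1 tested neighbor, called higher, and Cadm1 had 0. The part of chromosomal position in these levels was not tested.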

How the data were processed

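Sequencing was on an Illumina NovaSeq from VAHTS libraries. After filtering with Seqtk, the authors mapped reads with HISAT2 2.0.4 and deposited raw fragment counts per gene from StringTie 1.3.3b. The submitters' processing notes name the build mm10 (GRCm38). The authors also deposited FPKM values, which in 12102 of 12102 genes with at least 10 counts in each library fit 1 gene length within 1%, so they carry no TMM factor. The strand setting of the counting was not stated in the sources used here, so genes that overlap another gene (9 of the 10) have uncertain counts. Of the identifiers, 34267 occur in GENCODE M21, and 99.9% of these overlap their annotated position. All 34745 rows named a gene.

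The count test was edgeR 4.0.16 in R 4.3.3 (filterByExpr with a minimum count of 10, TMM, glmQLFit and glmQLFTest). SE is the log2 fold change divided by the square root of F. The common dispersion was 0.0136. The test was tested on simulated data first. Samples were grouped by title and columns by description. Floors and the exact intervals of summed-count ratios cover counting error only, since no molecular identifiers are described and reads may be PCR copies. Intervals of log2 fold changes come from the edgeR fit and include the spread between libraries. The 10 genes and the lists were chosen with earlier results of these data known. From each list at most 4 higher and 4 lower genes were named, those with the largest fold change among genes past an adjusted p of 0.05, a 2-fold change and a mean of 20 counts in the higher group, besides the binding partners Itga4, Itgb1, Itgal, Itgb2, Cd6, Crtam and Vsir. Icam4, Icam5, Cdh1, the polysialyltransferases and marker genes were also named after their values had been seen. Alternatives were DESeq2 1.42.0, limma 3.58.1 on log2(FPKM + 1), other scalings and filters, leaving out each library, a replicate block and, chosen after seeing the data, the length of the longest coding transcript. The nectins, afadin and VISTA were found under older symbols. Values were compiled with Python 3.11.15. Some genes of the lists are not reported here by name.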

Additional observations from a re-analysis of the deposited data

How the results depend on the processing

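The adhesion genes that passed the test, Vcam1, Icam1, Cdh11, Alcam, Mcam, Ncam1 and Igsf11, kept their direction and an adjusted p below 0.05 under each alternative that tested them (13 each, 12 for Igsf11, which the filter of 10 counts in every library removed). Cdh2 and L1cam passed under none. Cdh2 was at 0.00 with library size only and at 0.00 with limma, so its sign was not determined. With a 2-fold limit, 1 adhesion gene was higher instead of 3. Limma on log2(FPKM + 1) gave 626 genes past the threshold instead of 1524, and 6 lower genes among other cadherins instead of 10. Without a fold limit 4856 genes passed. With at least 10 counts in every library, 2 other immunoglobulin-superfamily genes were higher instead of 4. Leaving out single libraries gave between 1 and 3 higher binding partners, where the cause was not tested. Of the alternative values of counts and ratios, 8 were further than 1.5 times from the reported count, and the other 182 were within that limit or, for ratios, within the spread between replicates, though many were not identical (without a filter 1755 genes passed, and 5 adhesion genes were lower instead of 4). With the replicate block, 1495 genes passed, 3 adhesion genes were higher and 4 lower, and no call changed among them. Libraries with the same number did not deviate together, with correlations of 0.0157, −0.0256 and −0.0036. Depth limits L1cam, Cadm1 and Igsf11, each of which had fewer than 10 counts in every library of a group.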
